A study of Rattus norvegicus with 25 samples.

Results

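Nuclear-encoded ribosomal RNA (rRNA) fragments were followed in the sperm small RNA (smRNA) of male rats that had self-administered morphine or saline. The members were all transcripts that the deposited ncRNA count matrix lists in the Ensembl class rRNA, leaving out the class Mt_rRNA, which comes from the mitochondrial genome. The class held 205 of the 3804 rows of the matrix. Rows with the same counts in all 25 libraries were collapsed to 1, which left 161 members of 2086 distinct sets of counts in the matrix.

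The 4 groups were sperm of F0 Sprague–Dawley males after saline (F0_SAL, n = 7) or morphine (F0_MOR, n = 7) intravenous self-administration, and of males kept abstinent for 90 days after saline (F0_ABS-SAL, n = 5) or morphine (F0_ABS-MOR, n = 6). Sperm came from the cauda epididymis by a double swim-up, with a hypotonic wash before RNA extraction. All males had lever-pressed for infusions, so the amount of morphine differed between animals. The abstinent males were older at collection, so that abstinence, age and time since lever-pressing cannot be told apart in these groups.

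Ribosomal RNAs form the core of the ribosome, the machine that makes protein. In mammals the 18S, 5.8S and 28S rRNAs are cut from a common precursor made by RNA polymerase I in the nucleolus, while 5S rRNA is made from its own repeated genes by RNA polymerase III. Many scattered copies and pseudogenes of these genes lie across the genome, and a short read can match several of them. Mature sperm have shed most of their cytoplasm and no longer translate from cytoplasmic ribosomes, yet fragments of rRNA are a known part of sperm RNA. The matrix gives a transcript and gene identifier for each member but not which rRNA it is, and none of the gene tables used here matched these identifiers, so that the members are described by identifier and their kind and sequence are not given.

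The ncRNA libraries held 1540914 to 6489784 counts and the matching miRNA libraries 1032386 to 3203211 counts. Mitochondrial rRNA took 68.8% to 87.0% of the ncRNA counts in F0_SAL and 51.0% to 83.3% in F0_MOR, but 34.5% to 55.1% in F0_ABS-SAL and 42.4% to 59.5% in F0_ABS-MOR. Spliceosomal snRNAs moved the other way, from 5.02% to 19.4% in the nonabstinent libraries to 30.4% to 54.9% in the abstinent ones. A list of 4 sperm miRNA markers held 23.8% to 58.5% of miRNA counts over all libraries, with medians of 49.6% after saline and 45.9% after morphine in nonabstinent males, and 40.0% and 40.6% in abstinent ones. Each of its members was detected in every library. Epithelial miRNA markers, with all 6 of 6 detected in every library, had medians of 0.616% of miRNA counts in F0_SAL and 0.912% in F0_MOR, and after abstinence 1.09% with saline and 1.42% with morphine. The 5 leukocyte markers, also present in every library, had medians of 0.132%, 0.192%, 0.234% and 0.268% in the same order. The erythroid list, of which 3 of 4 markers were in the matrix, stayed at 0.0389% to 0.217%. Only the summed share of each list is given, so how single markers moved is not shown. In these bulk samples, fewer cells of a type and less RNA per cell cannot be told apart.

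Abundance was concentrated in a small part of the members. The 25 most abundant members held 95.8% of all member counts, with mean counts per library from 3291 to 10866, and the next member had a mean of 1754. At the other end, 96 members had a mean count under 10 and 20 were detected in a single library, while 53 had counts in all 25. The filter on low counts was passed by 74 members, and the 87 that did not pass held 0.0442% of the member counts together. The most abundant of those 87 were ENSRNOT00000053560.1, ENSRNOT00000054098.1 and ENSRNOT00000053169.1, whose highest counts in any library were 20, 24 and 30.

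**Figure D1:**
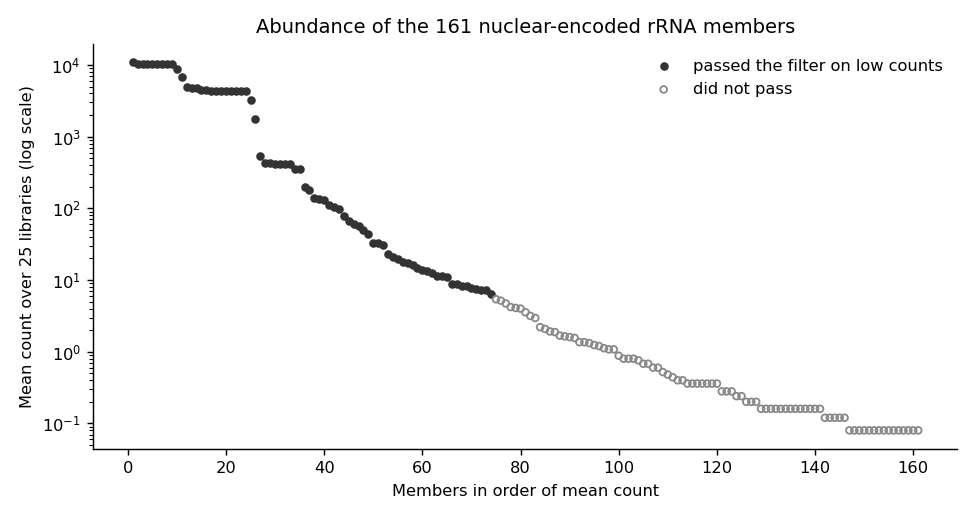
Mean count per library (log scale) of the 161 rRNA members, in order of abundance. Filled points passed the filter on low counts (74 members) and open points did not (87); the flat steps at the left are sets of members with nearly the same counts, and the first 25 points lie at 3291 or above.

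Many members repeated each other. Beyond the 20 sets of identical rows, of which the largest had 8, the 74 tested members fell into 48 sets when each was joined to the most abundant one it resembled, a grouping made after the counts were seen. Members were joined when the absolute differences of their counts, summed over the 25 libraries, were under 5% of the summed counts of both. All 25 most abundant members lay in 6 of these sets. The first was led by ENSRNOT00000072497.2 (gene ENSRNOG00000055067.1) and had 9 members with mean counts from 10328 to 10866. The largest was led by ENSRNOT00000083992.1 (gene ENSRNOG00000056963.1) and had 12 members with means from 4286 to 4726. ENSRNOT00000077643.1 (gene ENSRNOG00000058896.1) stood for 7 identical rows with a mean of 6688. Members of 1 set are not independent of each other, and whether the same reads were counted in several of them is not given in the sources used here, so the number of sets is given beside the main counts of members.

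The share of the ncRNA counts held by all members was lower in the abstinent libraries at the median, but the ranges overlapped. In F0_SAL the lowest share was 2.62%, the median 4.62% and the highest 7.54%. In F0_MOR these were 2.98%, 6.21% and 19.6%. The F0_ABS-SAL libraries had 2.61%, 2.70%, 3.05%, 3.67% and 4.07%, while F0_ABS-MOR ranged from 2.42% through a median of 3.44% to 5.39%. Library N of F0_MOR stood alone at 19.6%, and without it the highest share in that group was 7.89% and the median 6.20%.

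The choice of denominator decided how far the groups were apart. Counted against ncRNA without mitochondrial rRNA, members held 14.9% to 24.1% in F0_SAL and 16.0% to 40.0% in F0_MOR (at most 23.0% without library N). The same share was 5.09% to 8.13% in F0_ABS-SAL and 5.83% to 10.7% in F0_ABS-MOR, below every nonabstinent library. Set against miRNA counts of the same libraries, the medians were 7.94, 10.7, 8.35 and 8.22 member counts per 100 miRNA counts in the order saline, morphine, abstinent saline and abstinent morphine, and the ranges of all 4 groups overlapped. With 1 member counted per near-identical set, the median shares of ncRNA counts fell to 1.22%, 1.49%, 0.802% and 0.854%. The part of the snRNA share in these differences was not tested.

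**Figure D2:**
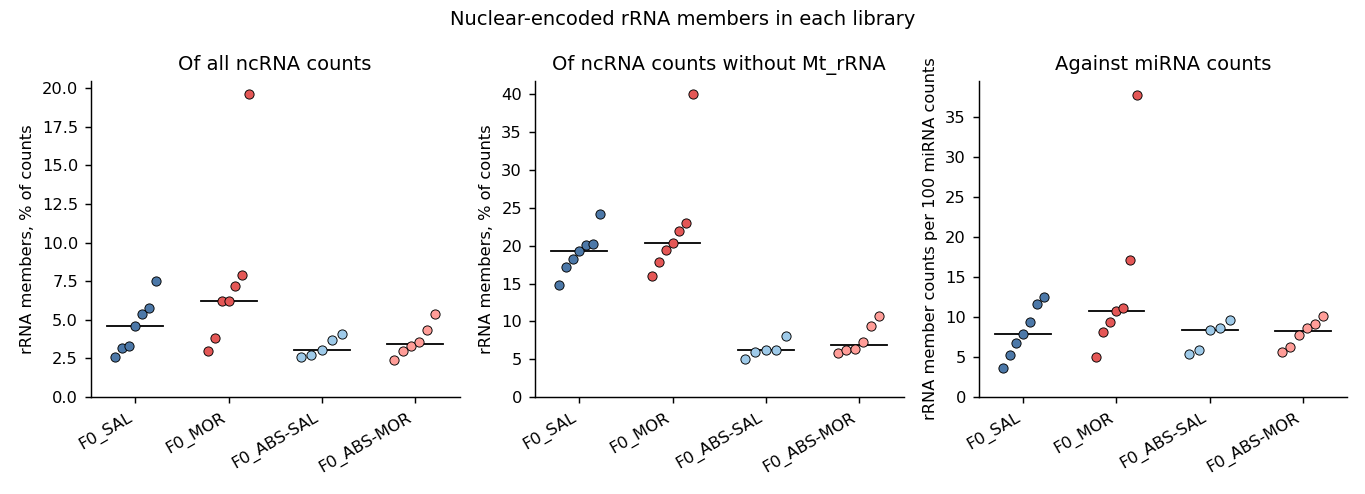
Counts of the rRNA members in each library as a percentage of all ncRNA counts, as a percentage of ncRNA counts without mitochondrial rRNA, and per 100 miRNA counts, by group. Points are libraries and lines are medians; the abstinent groups lie below the nonabstinent ones in the middle panel (5.09% to 10.7% against 14.9% to 40.0%) and overlap with them in the other panels.

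The levels of the most abundant set overlapped between the groups, and its leader did not pass the test in either timepoint comparison. ENSRNOT00000072497.2 had a level of 1981 CPM (counts relative to the library size scaled by the trimmed mean of M-values) at the lowest, 2561 at the median and 2818 at the highest in F0_SAL. In F0_ABS-SAL it had 1972, 2136, 2496, 2582 and 2703 CPM. F0_MOR ran from 1720 through a median of 2262 to 9750 CPM, and F0_ABS-MOR from 1311 through 2214 to 4574. All 4 groups overlapped at this member. The log2 fold change was -0.05 ± 0.32 (SE) for F0_ABS-SAL against F0_SAL and -0.39 ± 0.30 for F0_ABS-MOR against F0_MOR, with adjusted p of 0.917 and 0.355 in edgeR's quasi-likelihood test. The near copies ENSRNOT00000052795.3 and ENSRNOT00000053226.3, next in abundance, had log2 fold changes of -0.05 and -0.04 and of -0.42 and -0.42 in the same comparisons.

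Whether this set passed as lower after morphine abstinence depended on the settings. Over 11 alternatives the log2 fold change of ENSRNOT00000072497.2 in F0_ABS-MOR against F0_MOR ranged from -1.02 to -0.16, and 4 of the 11 called it lower, as did 5 of 11 for each near copy. With 1 library left out it ranged from -0.94 to -0.07 and was called lower in 5 of 13 fits. The value of -0.07 was that without library N.

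Library N held 67853 counts of ENSRNOT00000072497.2, against at most 9068 in the other F0_MOR libraries. Its 9-member set took 13.9% of the ncRNA counts of that library, against at most 3.12% in the others of the group. Of the 74 tested members, 48 were highest in library N among the F0_MOR libraries and 23 were over 2 times the next library in CPM. Near-identical members count separately here, among them the 9 of this set. The same shares over all tested rows are not given, so these counts are not read as particular to the members. Without library N, the log2 fold change of ENSRNOT00000072497.2 between F0_MOR and F0_SAL went from 0.40 ± 0.29 (SE) to -0.11, and neither passed the test.

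The first comparisons asked whether the members differed between collection timepoints, at the end of self-administration and after 90 days of abstinence. A call needed an adjusted p below 0.1 (Benjamini-Hochberg, over all tested rows) together with an absolute log2 fold change above 0.58. In F0_ABS-SAL against F0_SAL, 12 of the 74 tested members rose and 14 fell, and 48 did not pass. That was 16.2% and 18.9% of them, where 25.3% of all 407 distinct sets of counts tested rose and 7.13% fell. Of the 12 that rose, 4 did not pass the filter on low counts in the nonabstinent libraries alone, so they were tested only through the libraries in which they were higher. The median log2 fold change was -0.09 over the members, -0.05 with 1 member per near-identical set and 0.23 over all sets.

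In F0_ABS-MOR against F0_MOR, 12 members (16.2%) rose, 13 (17.6%) fell and 49 did not pass, where 26.8% of all tested sets rose and 8.11% fell. Of the 12 that rose here, 5 were tested only through the abstinent libraries in the same way. The median was -0.16 over the members, 0.19 with 1 member per near-identical set and 0.27 over all sets. The falls came from few near-identical sets. Of the 48 sets, 11 rose and 3 fell in the saline comparison, and 11 rose and 2 fell in the morphine comparison. Sets were joined by nearly equal counts alone, so members that moved together at unlike counts stayed separate, as among the risers. The numbers of rising and falling sets are therefore not counts of independent changes. The shares over all tested sets had only identical rows collapsed, so near copies counted separately there.

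The split between rises and falls depended on the scaling in both timepoint comparisons. Without the mitochondrial rRNA rows, 11 members rose and 0 fell in F0_ABS-SAL against F0_SAL, while 24 had risen or fallen when the scaling was taken from the joined ncRNA and miRNA matrices (10 higher and 14 lower). DESeq2 gave 7 higher and 20 lower. In F0_ABS-MOR against F0_MOR, at least 13 members fell under each of 13 alternative settings. The 13 of the main analysis lay in 2 of the 48 near-identical sets. DESeq2 called 9 higher and 29 lower, and the total count alone 7 higher and 31 lower. The median log2 fold change of all rows was -0.09 with DESeq2 size factors and -0.18 with the total count alone. The shares of all tested sets called under these settings are not given here for either comparison. Another scaling shifted the log2 fold changes of all rows. The median of these shifts was -0.28 to 0.19 in the saline comparison and -0.46 to 0.02 in the morphine comparison.

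Calls were shared between the timepoint comparisons in both directions. 9 members (12.2%) rose in both, in 8 of the 48 near-identical sets, where 21.1% of all 407 distinct sets of counts did. Of the 9 members, 2 passed the filter on low counts only through the abstinent libraries, in which they were higher. Risers of unlike counts that moved together were not joined into a set. The 13 members (17.6%) that fell in both lay in 2 of the 48 near-identical sets. Of all 407 sets, in which only identical rows were collapsed and these near copies count separately, 5.41% fell in both. The sign of the fold change was the same for 54 of 74 members (73.0%) and for 312 of all 407 sets (76.7%), and 0 members and 0 of all sets were called in opposite directions. These comparisons share no library, but in both the abstinent males were the older ones.

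**Figure D3:**
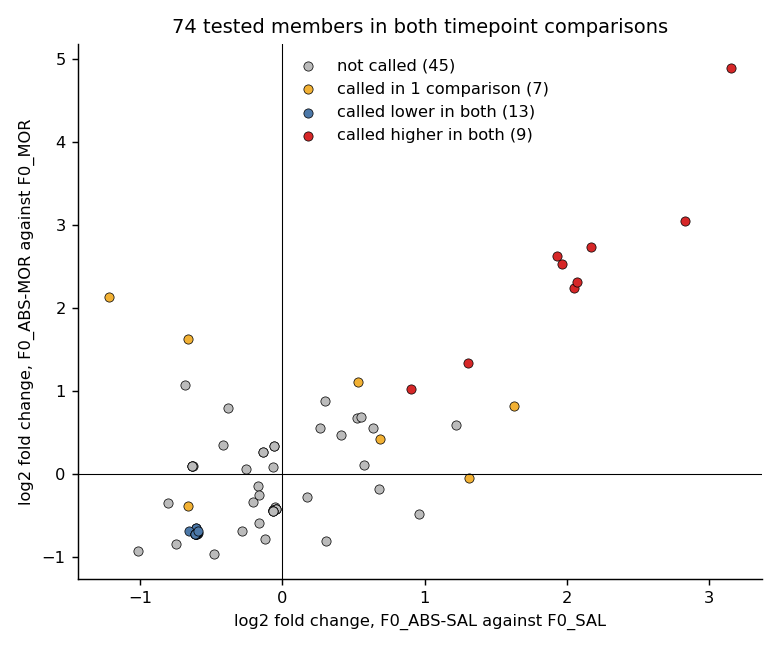
Log2 fold change of the 74 tested rRNA members in F0_ABS-SAL against F0_SAL (horizontal) and in F0_ABS-MOR against F0_MOR (vertical), each point a member. The 9 members called higher in both reach 3.15 and 4.89, the values of ENSRNOT00000053061.1, which passed the filter only through the abstinent libraries. The 13 called lower in both lie on top of each other between -0.72 and -0.59.

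The members that rose most were of low abundance. ENSRNOT00000053061.1 (gene ENSRNOG00000034938.1) had 12, 26, 34, 45 and 63 counts in the F0_ABS-SAL libraries and 14 to 61 counts (median 23) in F0_ABS-MOR. In F0_SAL it had 0 to 7 counts, with 3 libraries at 0, and in F0_MOR 0 to 4 counts, with 5 of 7 libraries at 0. Within each treatment, no nonabstinent library reached the lowest abstinent one. The log2 fold change was 3.15 ± 0.69 (SE; adjusted p = 6.8e-04) after saline and 4.89 ± 0.78 (adjusted p = 5.38e-06) after morphine. With 6 counts in all over F0_MOR, the fitted size of the second depends on how counts near 0 were treated. This member did not pass the filter in the nonabstinent libraries alone. It was tested because it was high in the abstinent ones, so its values are a description.

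ENSRNOT00000052544.1 (gene ENSRNOG00000034421.1) followed the same order of groups. It had 23, 35, 36, 49 and 80 counts in F0_ABS-SAL, where F0_SAL had 2 to 10 with a median of 3. F0_ABS-MOR had 17 to 77 counts with a median of 25.5, and F0_MOR 0 to 20 with a median of 2, the 20 being library N. In CPM no abstinent library overlapped with the nonabstinent libraries of its treatment. It, too, passed the filter only through the abstinent libraries, and its fold changes are a description. They were 2.83 ± 0.60 (SE; adjusted p = 4.22e-04) and 3.05 ± 0.59 (adjusted p = 1.11e-04). In every library its count was at least that of ENSRNOT00000053061.1; whether they share reads was not tested.

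A second group of risers was more abundant. ENSRNOT00000053460.2 (gene ENSRNOG00000047325.1) had 3.08 to 31.9 CPM in F0_SAL (median 8.10), and 13.5, 35.4, 49.7, 62.1 and 72.4 CPM in F0_ABS-SAL. After morphine it had 2.19 to 18.5 CPM in F0_MOR (median 7.67) and 19.0 to 94.9 CPM in F0_ABS-MOR (median 36.9). One F0_ABS-SAL library, L, lay within the F0_SAL range and the other 4 lay above it. The morphine groups did not overlap. Its log2 fold changes were 2.05 ± 0.53 (SE; adjusted p = 0.00337) and 2.25 ± 0.52 (adjusted p = 8.12e-04), and its exact permutation p-values 0.00758 and 0.00117. It passed the filter in the libraries of either timepoint alone.

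ENSRNOT00000052904.1, ENSRNOT00000085406.1, ENSRNOT00000074511.1 and ENSRNOT00000070303.1 rose with it. Their log2 fold changes were 2.07, 2.17, 1.96 and 1.93 after saline, and 2.32, 2.74, 2.53 and 2.62 after morphine. Counts of ENSRNOT00000085406.1 and of ENSRNOT00000070303.1 stayed at or below those of ENSRNOT00000053460.2 in all 25 libraries. With group means removed, the Pearson correlation of their log2 CPM with that of ENSRNOT00000053460.2 was 0.946 and 0.956. ENSRNOT00000053460.2, ENSRNOT00000085406.1 and ENSRNOT00000070303.1 lay in separate near-identical sets, and whether they share reads was not tested. The 2 remaining members that rose in both comparisons, ENSRNOT00000053977.3 and ENSRNOT00000052720.3, had smaller changes of 1.30 and 0.91 after saline and 1.34 and 1.03 after morphine.

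Another 6 members were called higher in 1 of the timepoint comparisons, and none of the 6 passed the interaction test. After saline these were ENSRNOT00000052626.3 (log2 fold change 0.69, against 0.43 after morphine), ENSRNOT00000086749.1 (1.31 against -0.05) and ENSRNOT00000052621.1 (1.63 against 0.82). After morphine they were ENSRNOT00000069393.1 (2.13, against -1.21 after saline), ENSRNOT00000069362.2 (1.62 against -0.66) and ENSRNOT00000054286.1 (1.11 against 0.53). These members were named after their values were seen. All but ENSRNOT00000052626.3 had a mean count under 14 and passed the filter only through the abstinent libraries.

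The members that fell were abundant and nearly identical. ENSRNOT00000083992.1 had 1052 to 2113 CPM in F0_SAL (median 1379) and 642, 766, 795, 1274 and 1350 CPM in F0_ABS-SAL. After morphine it had 1325 to 2125 CPM in F0_MOR (median 1545) and 664 to 1354 CPM in F0_ABS-MOR (median 947). In both treatments the abstinent medians lay below the lowest nonabstinent library, while the highest abstinent libraries still overlapped with the nonabstinent ones. Its log2 fold changes were -0.61 ± 0.24 (SE; adjusted p = 0.0537) and -0.65 ± 0.23 (adjusted p = 0.0264), with exact permutation p-values of 0.0354 and 0.00466. It was added to the named members after its values were seen, as the leader of the set that fell.

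The other 11 members of its set were close to it, with log2 fold changes from -0.65 to -0.60 after saline and from -0.72 to -0.65 after morphine. ENSRNOT00000085467.1, a member with a mean count of 3291, also fell in both, by 0.59 and 0.69 on the log2 scale. One member of the set, ENSRNOT00000091585.1, was lower in every F0_ABS-MOR library than in any F0_MOR library. The gap was narrow, at most 1268 CPM against at least 1277 CPM, and the leader of the set, with nearly the same counts, overlapped.

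Few members separated the timepoints without overlap, and more of these were higher than lower, as was so over all tested sets. In CPM, 3 of the 74 tested members (4.05%) were higher in every F0_ABS-SAL library than in any F0_SAL library and 0 were lower, where 5.9% and 0.983% of all 407 sets were. After morphine, 6 (8.11%) were higher in every abstinent library and 1 (1.35%) was lower, where 15.7% and 0.737% of all sets were. ENSRNOT00000053061.1 and ENSRNOT00000052544.1, tested only through the abstinent libraries, are among the 3 and among the 6 that were higher.

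In the saline comparison the fall rested on single libraries and on the scaling. The 14 lower calls became 0 without F0_ABS-SAL library R or without the mitochondrial rRNA rows, 1 without F0_ABS-SAL library K, and 2 without F0_SAL library P or V. Over the alternatives other than leaving out a library, the log2 fold change of ENSRNOT00000083992.1 in that comparison ranged from -0.97 to -0.42 and its call was lost in 4 of 11. In the morphine comparison it ranged from -1.13 to -0.56, with the call lost in 1 of 11, and leaving out single libraries left 13 to 30 members lower.

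ENSRNOT00000077643.1, the 7 identical rows, fell after saline. It had 1594 to 2665 CPM in F0_SAL (median 2038) and 1022, 1089, 1345, 1693 and 1711 CPM in F0_ABS-SAL, so that 2 of the 5 abstinent libraries reached into the saline range. The log2 fold change was -0.66 ± 0.20 (SE; adjusted p = 0.0115). After morphine its level went from 1774 to 2518 CPM (median 1975) to 1111 to 1891 CPM (median 1646), a log2 fold change of -0.39 ± 0.19 that did not pass (adjusted p = 0.114). Without library N it was -0.63 and passed (adjusted p = 0.0155). With 1 library left out the morphine change ranged from -0.85 to -0.39 and passed in 7 of 13 fits, and over 11 alternatives it ranged from -0.85 to -0.29 and passed in 4. The saline change minus the morphine change was -0.28 ± 0.27 and did not pass either. Over 11 alternatives the saline change ranged from -1.02 to -0.48 and the call was lost in 3 of them. This member, too, was named after its values were seen.

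**Figure D4:**
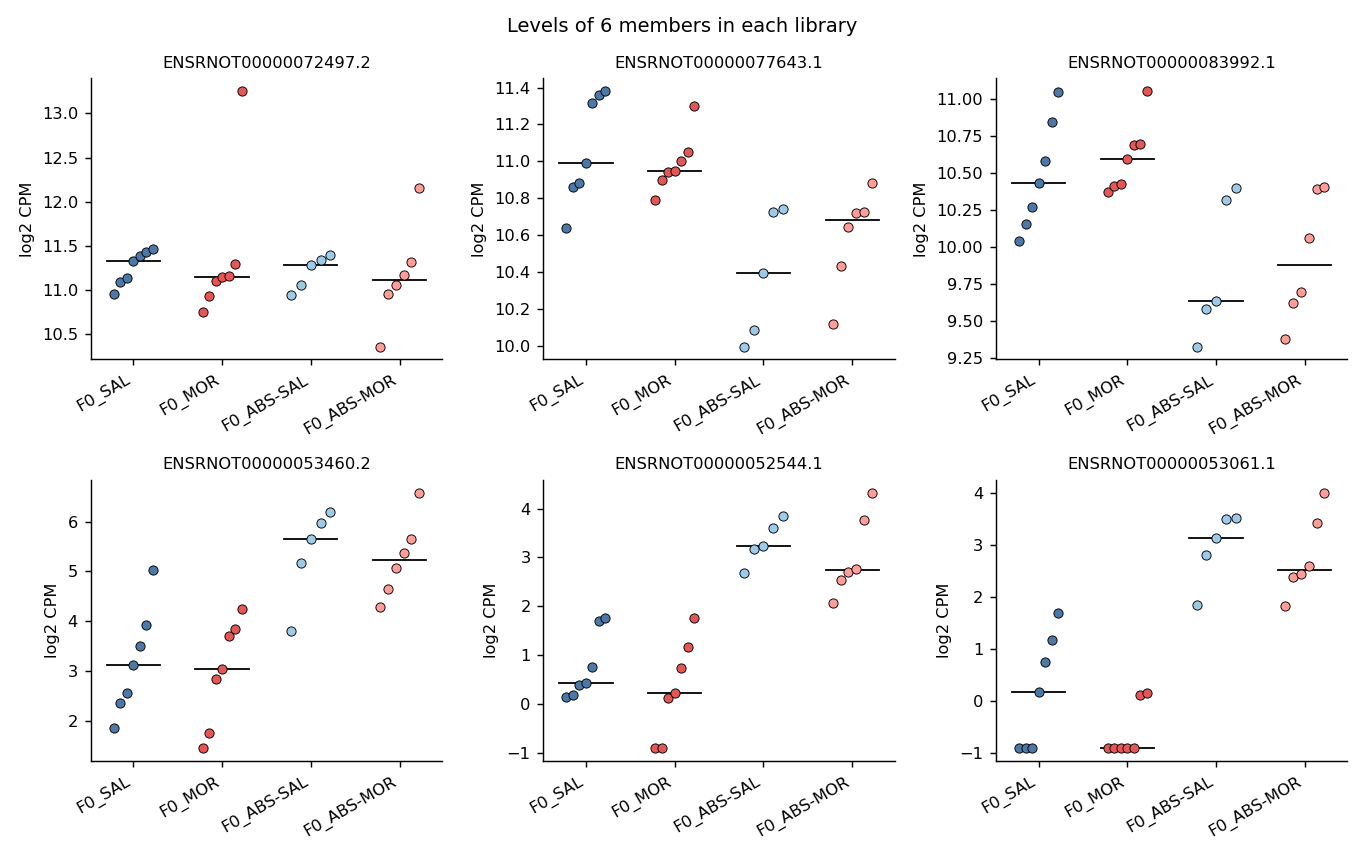
Log2 CPM of 6 rRNA members in each library, by group, with the group median as a line (each panel has its own axis). ENSRNOT00000072497.2 overlaps between the groups with library N on top of F0_MOR, ENSRNOT00000077643.1 and ENSRNOT00000083992.1 have lower medians in the abstinent groups, and ENSRNOT00000053460.2, ENSRNOT00000052544.1 and ENSRNOT00000053061.1 have higher ones.

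The members with the lowest fold changes in the timepoint comparisons did not pass the test. ENSRNOT00000069393.1 had a log2 fold change of -1.21 ± 0.77 (SE; adjusted p = 0.248) after saline, at 2 to 26 counts in F0_SAL and 0 to 15 in F0_ABS-SAL. ENSRNOT00000052473.1 had -0.97 ± 0.68 (adjusted p = 0.302) after morphine, at 0 to 35 counts in F0_MOR, where the 35 was library N, and 2 to 14 in F0_ABS-MOR.

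Counts of members set against each other within a library do not depend on the library scaling. These ratios were chosen after the values were seen and are given with no test. Per 1000 counts of ENSRNOT00000072497.2, ENSRNOT00000074819.1, the most abundant member outside that set, had 791 to 887 counts in F0_SAL and 689, 693, 706, 728 and 764 in F0_ABS-SAL, with no overlap. After morphine it had 799 to 924 in F0_MOR and 622 to 825 in F0_ABS-MOR. Library N, in which both members were high, had the highest of these ratios.

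ENSRNOT00000052626.3 moved the opposite way by the same measure. It had 117 to 168 counts per 1000 in F0_SAL and 201, 227, 233, 241 and 250 in F0_ABS-SAL, again with no overlap. F0_MOR had 97.8 to 171 and F0_ABS-MOR 162 to 262, with overlap. Among the members that rose, ENSRNOT00000053977.3 went from 3.82 to 17.2 in F0_SAL to 11.2 to 33.3 in F0_ABS-SAL, and from 4.08 to 9.92 in F0_MOR to 12.6 to 40.1 in F0_ABS-MOR. The ratio of ENSRNOT00000083992.1 overlapped in both treatments, at medians of 690 and 697 in F0_SAL and F0_MOR against 308 and 409 in F0_ABS-SAL and F0_ABS-MOR.

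**Figure D5:**
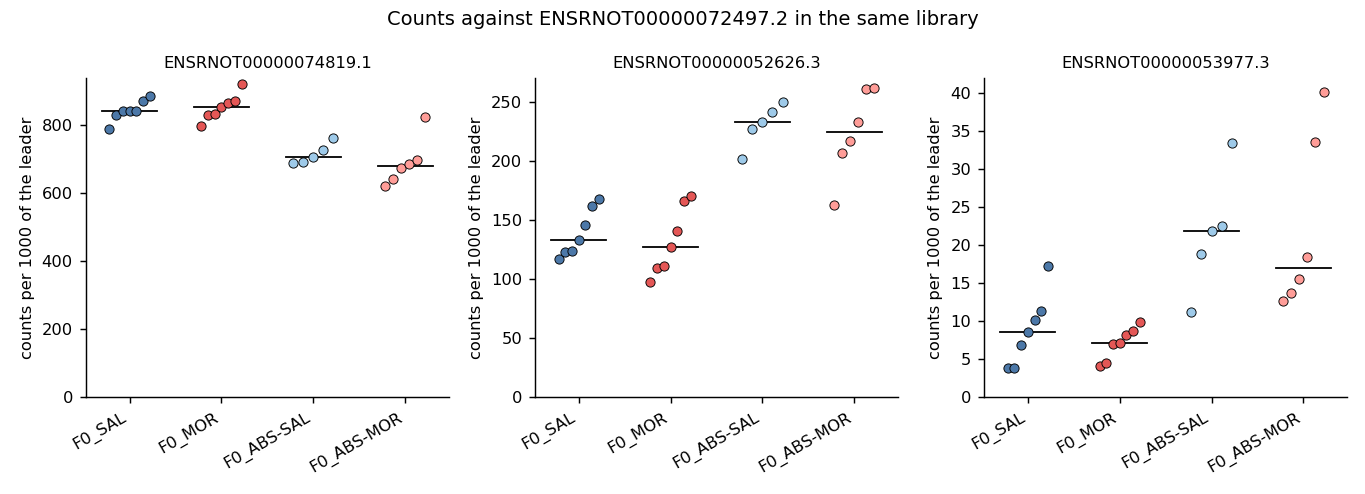
Counts of 3 rRNA members per 1000 counts of ENSRNOT00000072497.2 in the same library, by group, with the group median as a line. ENSRNOT00000074819.1 is lower in the abstinent groups (622 to 825 against 791 to 924), and ENSRNOT00000052626.3 (162 to 262 against 97.8 to 171) and ENSRNOT00000053977.3 (11.2 to 40.1 against 3.82 to 17.2) are higher.

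The timepoint differences ran beside differences in marker levels. The summed sperm marker share was 39.2% to 58.5% in F0_SAL (median 49.6%) and 28.5% to 45.9% in F0_ABS-SAL (median 40.0%), and after morphine 36.6% to 47.7% (median 45.9%) and 23.8% to 47.3% (median 40.6%). The summed epithelial marker share was 0.503% to 1.00% of miRNA counts in F0_SAL and 1.04% to 1.94% in F0_ABS-SAL, and 0.696% to 1.12% in F0_MOR and 0.817% to 2.05% in F0_ABS-MOR. The leukocyte share was 0.0895% to 0.215% and 0.208% to 0.314% in the saline groups, and 0.154% to 0.228% and 0.221% to 0.357% in the morphine groups. The part of these cells in the rRNA differences was not tested.

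The second comparisons asked whether morphine changed the members at a given timepoint. In F0_MOR against F0_SAL, 0 of 74 members were called by edgeR, where 0% of the 407 tested sets were called. An unadjusted p below 0.05 was reached by 4 members in edgeR, 5 in DESeq2 and 3 in limma-voom, and neither of the other tools called a member. The median log2 fold change was 0.14 over the members and -0.04 over all sets, and the total count alone as scaling moved these to 0.52 and 0.33.

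The smallest p in this comparison was that of ENSRNOT00000069393.1 (gene ENSRNOG00000044126.1). It had 2 to 26 counts in F0_SAL with a median of 9, and 0 to 9 in F0_MOR with a median of 2 and 3 of 7 libraries at 0. The log2 fold change was -2.58 ± 0.77 (SE; adjusted p = 0.464). An exact two-sided permutation test of its log2 CPM gave p = 0.00291, unadjusted for its choice as the smallest. ENSRNOT00000069362.2 was next at -1.62 ± 0.63 (adjusted p = 0.671), with 4 to 30 counts in F0_SAL and 0 to 9 in F0_MOR. ENSRNOT00000070337.1 had the opposite sign at 1.21 ± 0.52 (adjusted p = 0.671), with 0 to 18 counts in F0_SAL and 6 to 97 in F0_MOR, where library N held the 97. All 3 overlapped between the groups. ENSRNOT00000069393.1 and ENSRNOT00000069362.2 did not pass the filter on low counts in the nonabstinent libraries alone, which are the ones compared here.

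In F0_ABS-MOR against F0_ABS-SAL, edgeR called 0 of 74 members and 0% of all sets, and 0 members had an unadjusted p below 0.05. DESeq2 had 1 such member and limma-voom 4, with 0 calls each. The smallest p belonged to ENSRNOT00000069597.1, with 0 to 10 counts in F0_ABS-SAL and 2 to 15 in F0_ABS-MOR and a log2 fold change of 1.26 ± 0.67 (SE; adjusted p = 0.992). The near-identical pair ENSRNOT00000069841.1 and ENSRNOT00000070269.1 followed at 0.60 ± 0.33 and 0.61 ± 0.33. For ENSRNOT00000069841.1, F0_ABS-SAL had 57.4, 58.8, 64.2, 80.5 and 122 CPM and F0_ABS-MOR 66.3 to 159 with a median of 116. The exact permutation p for it was 0.0693.

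The interaction between treatment and timepoint called 0 members, with 0% of all sets called. Below an unadjusted p of 0.05 lay 2 members in edgeR, 5 in DESeq2 and 2 in limma-voom. The edgeR members were ENSRNOT00000069393.1, at -3.34 ± 1.10 (SE; adjusted p = 0.912), and ENSRNOT00000069362.2, at -2.28 ± 0.92 (adjusted p = 0.912). Both had lower medians in F0_MOR than in F0_SAL and called higher levels in F0_ABS-MOR than in F0_MOR, at 2.13 ± 0.78 (adjusted p = 0.0358) and 1.62 ± 0.64 (adjusted p = 0.0544). Their mean counts over all libraries were 7.36 and 11.2. Both passed the filter on low counts only through the abstinent libraries, so these calls are a description. F0_MOR enters both of these differences, so the one is not independent of the other.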

How the data were processed

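The authors prepared smRNA libraries from sperm RNA with a ligation kit, sequenced them and used the forward reads. Per the paper's methods, sRNAbench aligned trimmed reads of at least 15 bases to the Rnor_6.0 genome, assigned reads to miRBase first and the rest to Ensembl ncRNAs in sense, with a minimum of 2 reads. The authors deposited raw counts per transcript, with no count of 1 in them, so that a 0 can stand for 1 read. Whether a read that matched several rows was counted at each is not given in the sources used here. Columns carry a letter and a group (REG for nonabstinent, TO for abstinent, the only reading that gave each group its number of samples), and 0 columns were left unused.

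Counts were tested in edgeR 4.0.16 (R 4.3.3) with TMM scaling, filterByExpr and 1 quasi-likelihood model over 25 libraries and the whole ncRNA matrix (482 rows passed, 407 distinct). SE is the fold change divided by the square root of F. CPM is the count relative to the TMM-scaled library size, and log2 CPM uses a prior count of 2. Exact permutation tests (scipy 1.17.1, 34 run, p not adjusted over them) used log2 CPM. DESeq2 1.42.0 and limma 3.58.1 were alternatives, as were other scalings, filters, thresholds and leaving out each library. The fits were tested on simulated data. No pair of libraries agreed within counting noise (chi-square per degree of freedom at least 36.7 over 300 pairs).

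Named members were the 3 most abundant, the 3 with the smallest p in each pairwise comparison, those with the largest and smallest fold change in each timepoint comparison, and the 3 most abundant that did not pass the filter. Other members are named as parts of a call or a near-identical set, after their values were seen. The members, lists and tests were chosen with earlier results of these data known. Of 33 members whose counts equal those of rows in other classes, 0 were tested.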

Additional observations from a re-analysis of the deposited data

Results flagged for a closer look

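Library N of F0_MOR lay far above the other 6 libraries of its group in several measures. Its log2 CPM was 13.25 for ENSRNOT00000072497.2, against 11.30 in the next library, and 13.22 for both near copies, ENSRNOT00000052795.3 and ENSRNOT00000053226.3. Its members held 19.6% of the ncRNA counts, against 7.89% in the next library, and 40.0% of the ncRNA counts without mitochondrial rRNA, against 23.0%. These values rest on the same reads and are not separate observations.

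Library R of F0_ABS-SAL had no counts of ENSRNOT00000052473.1, which set its log2 CPM to -0.90, with the next library at 0.63. Library O of F0_SAL had the highest total of ncRNA counts, 22.63 on the log2 scale against 21.76 in the next. Of 84 groups of values looked at in this way, about 4.2 would be expected to stand out by chance, and 7 did.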

How the results depend on the processing

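No paired analysis was possible because the columns of the matrices carry no replicate number, and no male could be sampled at both timepoints. Per the paper's methods, males took either morphine or saline and were euthanized for sperm collection. The missing numbers therefore hid no repeated measure of the same male. In F0_ABS-SAL against F0_SAL, the 26 calls became 10 with no filter on low counts, 5 with at least 10 counts in every library, 15 with identical rows collapsed, 11 without mitochondrial rRNA, 10 with total count as covariate and 9 at an adjusted p under 0.05, and 8 to 29 with 1 library left out (11 without P, 14 without V, 8 without K, 9 without R). In F0_ABS-MOR against F0_MOR, the 25 calls became 38 with DESeq2, with its size factors and with the total count alone, and 24 to 38 with 1 library left out (38 without G). In F0_MOR against F0_SAL, the 0 calls became 1 with no filter. The causes were not tested beyond the smaller or larger number of rows that some of these settings test. Calls in the other 2 comparisons were 0 throughout. The fold changes of ENSRNOT00000053061.1, ENSRNOT00000052544.1 and ENSRNOT00000053460.2 kept their direction and their call in both timepoint comparisons under each setting that could be computed. ENSRNOT00000053061.1 and ENSRNOT00000052544.1 passed the filter only through the abstinent libraries, where they were high, so for them this is a description. In F0_ABS-MOR against F0_MOR, ENSRNOT00000072497.2 and ENSRNOT00000077643.1 became lower calls in 4 of 11 settings each, and in 5 and 7 of 13 fits with 1 library left out.

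Among the named members checked, signs reversed only in comparisons where the member's change was small and did not pass in the main analysis. In F0_ABS-SAL against F0_SAL, ENSRNOT00000072497.2, ENSRNOT00000052795.3 and ENSRNOT00000053226.3 went to 0.12, 0.12 and 0.12 with no filter and to 0.15, 0.15 and 0.16 without mitochondrial rRNA, and had -0.52 to 0.063, -0.51 to 0.068 and -0.51 to 0.069 with 1 library left out. In F0_MOR against F0_SAL they had -0.059, -0.065 and -0.063 in limma-voom and -0.11 to 0.71, -0.12 to 0.72 and -0.12 to 0.73 with 1 library left out. ENSRNOT00000077643.1 had 0.24 with the total count alone, 0.10 with the joined matrices and -0.26 to 0.074 with 1 left out, and ENSRNOT00000083992.1 -0.039 to 0.30. In F0_ABS-MOR against F0_ABS-SAL the first 3 went to -0.16, -0.19 and -0.19 in DESeq2 and with its size factors, -0.20, -0.25 and -0.25 in limma-voom, -0.10, -0.13 and -0.13 with the joined matrices, -0.11, -0.13 and -0.14 with no filter, -0.11, -0.14 and -0.14 with at least 10 counts, -0.063, -0.087 and -0.088 with only the groups compared, and -0.15, -0.18 and -0.18 without mitochondrial rRNA. With identical rows collapsed, ENSRNOT00000052795.3 and ENSRNOT00000053226.3 went to -0.015 and -0.017. ENSRNOT00000083992.1 went to -0.079 in DESeq2 and with its size factors, -0.10 with no filter and -0.051 without mitochondrial rRNA. With 1 library left out, this comparison gave -0.32 to 0.10, -0.36 to 0.076, -0.37 to 0.075, -0.17 to 0.12 for ENSRNOT00000083992.1 and -0.00055 to 0.18 for ENSRNOT00000077643.1.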

Other observations

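Of the 161 members, 18 had no counts in any nonabstinent library and 14 none in any abstinent library, and no member that was absent from all nonabstinent libraries was detected in 6 or more abstinent ones. Libraries held 77 to 110 detected members, with a median of 88 in both nonabstinent groups, 98 after abstinence with saline and 95 with morphine, where the abstinent libraries had more ncRNA counts at the median. ENSRNOT00000053560.1, which did not pass the filter, had 2 to 20 counts in each F0_SAL library and was at 0 in 5 of 7 F0_MOR libraries, with 6 counts in library N.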
